A study of Mus musculus with 12 samples.

Results

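The genes described here are 7 co-stimulatory and adhesion genes of antigen-presenting cells, chosen by name: Cd80, Cd86 and Icosl, which encode ligands of the B7 family, the receptor gene Cd40, the maturation marker Cd83, and the adhesion genes Icam1 and Cd48. All 7 were found among the 55401 genes of the count table, and all 7 were among the 14079 genes with enough counts to be tested. They were measured by bulk RNA sequencing in Sp37A3 cells, an immature dendritic cell (DC) line from mouse spleen that was grown with GM-CSF and M-CSF. CtrV cells had been transduced with an empty CRISPR vector and carry Siglec-E, an inhibitory receptor that binds sialic acids, whereas the cells labelled EKO had received a vector with a guide against its gene, Siglece. Each line was pulsed with ovalbumin (OVA) or left unpulsed, which is how the ut of the sample titles is read here. This gives 4 groups of 3 libraries, 12 in all. Cells of all groups were processed after 24 h. The paper's sequencing methods describe 24 h of LPS after the OVA pulse and do not mention unpulsed cells. The unpulsed groups are taken here to have had LPS as well. On that reading no group without LPS was compared, and the levels below are those of stimulated cells. The EKO cells were several clones that had been screened for Siglec-E and then pooled, and there is 1 cell line in each arm, so the loss of Siglec-E and any other difference between the 2 lines cannot be told apart.

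Naive T cells need a signal beyond the antigen receptor, and DCs give it through surface ligands that rise when the DC matures. CD80 and CD86 bind CD28, which activates the T cell, and CTLA-4, which restrains it. ICOSL binds ICOS on activated T cells. CD40 works in the opposite direction: it is the receptor through which CD40 ligand on the T cell signals into the DC by TRAF proteins and NF-kB. CD83 marks mature DCs and holds CD86 and MHC class II at the surface by opposing the ubiquitin ligase MARCH1. ICAM-1 is the ligand of the integrin LFA-1, and CD48 is a lipid-anchored molecule of the SLAM family that binds CD2 and CD244.

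Library totals ranged from 27116201 to 39698572 counts, so that 3 counts corresponded to between 0.0784 and 0.11 CPM (counts scaled to library size and the TMM factor of the library). Replicate 1 of the EKO-labelled cells stood apart from the other two. Its chi-square statistic per degree of freedom over genes was 38.4 and 45.3 against replicates 2 and 3 in unpulsed cells and 42.2 and 26.2 in OVA-pulsed cells, compared with 7.52 and 11.9 between replicates 2 and 3. In unpulsed CtrV cells it was replicate 3 that stood apart, with 25.4 and 23.4 against replicates 1 and 2, compared with 4.86 between these. In OVA-pulsed CtrV cells replicate 1 was the farthest, with 14.5 and 21.3 against replicates 2 and 3, compared with 7.98 between these. That library was the highest of its group for every member except Cd48, for which it was the lowest. Siglece mRNA was higher, not lower, in the cells labelled EKO, with log2 fold changes of 0.31 with OVA and 0.41 without (adjusted p = 0.0106 and 0.00261, edgeR). It was 155 ± 6.10 CPM in unpulsed CtrV, 156 ± 6.26 in OVA-pulsed CtrV, 207 ± 36.6 in unpulsed EKO-labelled and 195 ± 17.9 in OVA-pulsed EKO-labelled cells (mean ± SD, n = 3). The paper reports minimal or absent Siglec-E on the pooled clones, which mRNA counts do not measure. The counts therefore do not check the label of the line, and every direction below rests on the labels. The DC markers set as a list summed to between 20000 and 23600 CPM per library, mostly from Cd74 and H2-Ab1, with Clec9a at 1 count or fewer and Flt3 low. Single DC markers differed between the lines. Of the 11 tested, the EKO-labelled cells had 5 higher and 2 lower with OVA, and 4 higher and 2 lower without. Among all tested genes, 25.1% were higher and 21.9% lower with OVA, and 24.5% and 21.9% without. With OVA, Irf8 and Batf3 were higher by 1.35 and 1.67 on the log2 scale, and Cd24a and Itgax were at -1.68 and -0.27. Their part in the results below was not tested. The markers of T cells, B cells, NK cells, neutrophils and fibroblasts summed to at most 1.73, 1.06, 0.49, 0.0986 and 0.0329 CPM. The 6 macrophage markers were all detected and summed to 1330 to 1530 CPM in CtrV and 1700 to 1880 CPM in EKO-labelled libraries. Among them, Fcgr1, Cd68 and Csf1r were higher in EKO-labelled cells in both pulsing states by edgeR's quasi-likelihood test, whereas Adgre1 (log2 fold change -0.03 with OVA and 0.00 without) and Mertk (-0.32 and -0.35) were not called. The part of these markers in the results below was not tested. In bulk samples, a larger number of expressing cells and more RNA per cell cannot be told apart.

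In OVA-pulsed cells, 6 of the 7 genes were higher in the EKO-labelled line and 1, Cd48, was lower, as judged by the quasi-likelihood test of edgeR at a Benjamini-Hochberg adjusted p under 0.05. Of all tested genes, 25.1% were higher and 21.9% lower in the same comparison. The same 6 genes were higher and Cd48 lower in unpulsed cells, where 24.5% of all tested genes were higher and 21.9% lower. The median log2 fold change of the 7 genes was 0.87 with OVA and 0.81 without, against 0.00 over all tested genes in both. For each of the 7 genes, the 3 EKO-labelled libraries lay wholly above or wholly below the 3 CtrV libraries of the same pulsing state, which was the case for 52.9% of all tested genes with OVA and for 47.1% without. The changes differed widely in size, from 12.1-fold for Cd83 to 1.17-fold for Icosl in OVA-pulsed cells.

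**Figure D1:**
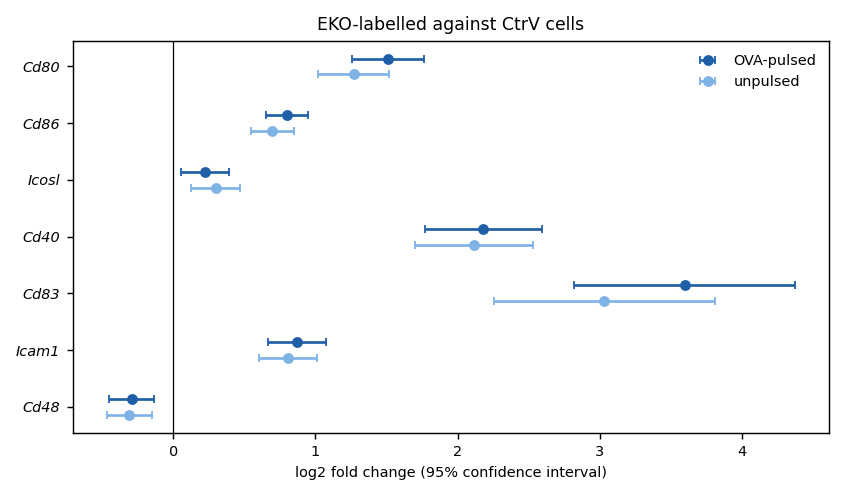
Log2 fold change (horizontal axis) of each of the 7 genes between EKO-labelled and CtrV cells, for OVA-pulsed (dark) and unpulsed (light) cells. Points are the fitted values over 3 libraries a group and bars the 95% confidence intervals; Cd83 was farthest from 0 at 3.60 and 3.03, and Cd48 alone lay below 0, at -0.29 and -0.31.

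The promoters of 4 of the 7 genes were found in the RefSeq promoter sequences of mouse build GRCm38.p6, namely those of Cd80, Icosl, Icam1 and Cd48. Those of Cd86, Cd40 and Cd83 were not among the sequences at hand, so only these 4 are shown. Each line runs 5′ to 3′ on the plus strand, over the 250 bases before the RefSeq start. Capitals mark matches, on either strand, to the NF-kB motif GGG NNNNN CC, the interferon motif ISRE (GAAA NN GAAA), the STAT motif GAS (TTCNNNGAA) or the AP-1 motif TGANTCA.
Cd80, chr16:38458683-38458932: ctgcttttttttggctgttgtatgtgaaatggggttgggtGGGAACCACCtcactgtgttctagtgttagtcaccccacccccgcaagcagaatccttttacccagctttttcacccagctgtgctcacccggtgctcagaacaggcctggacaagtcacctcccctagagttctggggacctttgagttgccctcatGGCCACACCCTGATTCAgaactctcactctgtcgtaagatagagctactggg
Icosl, chr10:78069118-78069301: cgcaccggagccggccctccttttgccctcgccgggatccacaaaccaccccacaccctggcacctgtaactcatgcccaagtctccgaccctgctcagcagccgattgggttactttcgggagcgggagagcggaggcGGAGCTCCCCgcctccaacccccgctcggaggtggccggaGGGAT
Icam1, chr9:21015690-21015939: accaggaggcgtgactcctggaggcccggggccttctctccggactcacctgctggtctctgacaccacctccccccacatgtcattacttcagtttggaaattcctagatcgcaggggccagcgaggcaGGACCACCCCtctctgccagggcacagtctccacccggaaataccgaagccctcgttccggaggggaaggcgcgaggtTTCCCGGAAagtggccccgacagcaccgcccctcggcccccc
Cd48, chr1:171681742-171681991: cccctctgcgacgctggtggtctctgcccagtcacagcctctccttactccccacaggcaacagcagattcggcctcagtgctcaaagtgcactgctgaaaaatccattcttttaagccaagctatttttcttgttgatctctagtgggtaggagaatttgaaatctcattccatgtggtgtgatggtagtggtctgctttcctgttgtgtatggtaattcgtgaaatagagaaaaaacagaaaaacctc
The last 66 bases before the RefSeq start of Icosl are not shown, because GENCODE places them in the first exon. The Cd80 window lies inside the gene as GENCODE draws it, which begins upstream of the window, at 38455561. The Cd80 window held 2 NF-kB matches and 1 AP-1 match, the latter at 42 to 36 bases before the start and next to an NF-kB match at 52 to 43. That of Icosl held 2 NF-kB matches, at 111 to 102 and 71 to 62 bases before the start, the second of which runs past the bases shown. Icam1 had 1 NF-kB match, at 120 to 111, and 1 GAS match, at 42 to 34. The Cd48 window held none of the 4 motifs. Over 32851 promoter windows of the same length, 45.8% held an NF-kB match, 7.02% a GAS match, 6.75% an AP-1 match and 2.98% an ISRE match. An NF-kB match alone is therefore common, and so is a window without one. Only the letters given were searched, so a binding site that departs from them stays unmarked in these windows. Whether these motifs go with the direction of change was not tested.

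Cd80 (ENSMUSG00000075122, chromosome 16, 38455561 to 38496335 of GRCm38, plus strand) had the largest rise among the 3 B7 ligands. In CtrV cells its CPM in replicates 1, 2 and 3 was 139, 158 and 173 unpulsed and 174, 138 and 138 after OVA. In EKO-labelled cells it was 436, 368 and 337 unpulsed and 453, 390.2 and 437 after OVA. Every EKO-labelled library lay far above every CtrV library, in either state. The log2 fold change was 1.51 (SE 0.114), or 2.85-fold, in OVA-pulsed cells (adjusted p = 2.22e-06, edgeR's quasi-likelihood test) and 1.27 (SE 0.113), or 2.41-fold, in unpulsed cells (adjusted p = 8.39e-06). A larger rise was seen in 3.3% of all tested genes with OVA and in 4.03% without.

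Cd86 (ENSMUSG00000022901, chromosome 16, 36603869 to 36666081, minus strand) was the most abundant of the 7 genes and the one with the least spread in OVA-pulsed EKO-labelled cells. CtrV replicates 1, 2 and 3 held 448, 484 and 534 CPM when unpulsed and 491, 464 and 467 CPM after OVA. The EKO-labelled replicates held 826, 796 and 754 CPM when unpulsed and 828, 812 and 835 CPM after OVA. The lines did not overlap in either state. The coefficient of variation (CV, the SD as a percent of the mean) was 1.43% in OVA-pulsed EKO-labelled cells and at most 8.87% in the other groups. The log2 fold change was 0.80 (SE 0.0678), or 1.74-fold, with OVA (adjusted p = 5.29e-06, edgeR) and 0.70 (SE 0.0678), or 1.62-fold, without (adjusted p = 1.52e-05). The ubiquitin ligase genes Marchf1 and Marchf8, which control how long CD86 and MHC class II stay at the surface, were not called in either state. Marchf1 was at 188 ± 19.7 and 199 ± 25.3 CPM in unpulsed and OVA-pulsed CtrV cells and at 185 ± 3.21 and 189 ± 20.2 CPM in the EKO-labelled cells.

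Since CD80 and CD86 share their receptors, Cd80 counts were also set against Cd86 counts within each library. Per 100 counts of Cd86 there were 31, 32.6 and 32.5 counts of Cd80 in unpulsed and 35.5, 29.7 and 29.6 in OVA-pulsed CtrV replicates 1, 2 and 3. In EKO-labelled cells there were 52.8, 46.2 and 44.7 without OVA and 54.7, 48.1 and 52.3 with OVA. Every EKO-labelled library thus had more Cd80 per Cd86 than every CtrV library. The mean log2 ratio was higher in EKO-labelled cells by 0.65 over both states (exact permutation test, two-sided, line labels permuted within pulsing state, p = 0.005, the smallest that its 400 arrangements can give). It was higher by 0.71 in OVA-pulsed and by 0.58 in unpulsed cells, where 3 libraries against 3 cannot give an exact p below 0.1, which both reached. The test over both states treats all 12 libraries as independent. Same-numbered EKO-labelled libraries with and without OVA shared deviations from their group means, with correlations across genes of 0.706, 0.351 and 0.411. Its p therefore holds only if pulsed and unpulsed libraries were separate cultures, which the labels do not say.

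**Figure D2:**
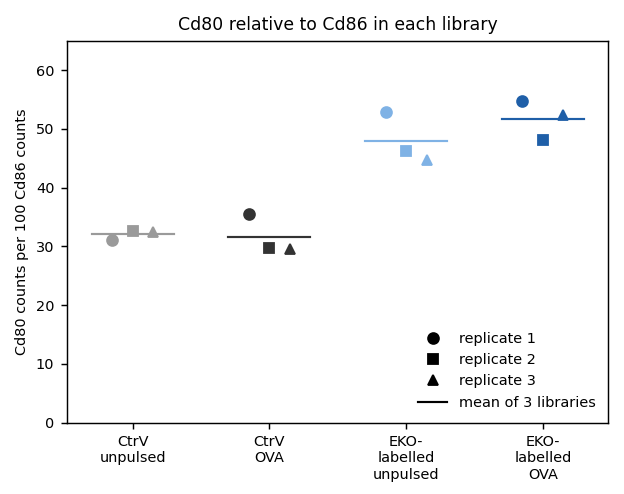
Cd80 counts per 100 Cd86 counts (vertical axis) in each library of the 4 groups; symbols give the replicate number and lines the mean of 3 libraries. The CtrV libraries lie between 29.6 and 35.5 and the EKO-labelled libraries between 44.7 and 54.7.

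Icosl (ENSMUSG00000000732, chromosome 10, 78069302 to 78083913, plus strand) changed least. Its levels in CtrV replicates 1, 2 and 3 were 63.1, 62.4 and 52.9 CPM when unpulsed and 62.1, 59.6 and 56.6 CPM after OVA. In EKO-labelled cells they were 69.3, 80.01 and 69.4 CPM when unpulsed and 78.3, 64.6 and 65.2 CPM after OVA. The groups did not overlap, but in OVA-pulsed cells the gap between the highest CtrV and the lowest EKO-labelled library was smaller than the spread within either line. The log2 fold change was 0.22 (SE 0.0767, 95% confidence interval 0.05 to 0.39) with OVA (adjusted p = 0.036, edgeR) and 0.30 (SE 0.0771, interval 0.13 to 0.47) without (adjusted p = 0.00903). A rise larger than that of Icosl was seen in 25.6% of all tested genes with OVA and in 19.9% without. The call with OVA was lost in a fit without the replicate number as a covariate (adjusted p = 0.0872, edgeR). It was also lost when any of the 3 OVA-pulsed CtrV libraries or replicate 1 or 3 of the OVA-pulsed EKO-labelled libraries was left out, with edgeR adjusted p-values of 0.0867, 0.144, 0.072, 0.188 and 0.103. Without EKO-labelled replicate 1 the log2 fold change with OVA was 0.14, and the call in unpulsed cells was lost without EKO-labelled replicate 2 (log2 fold change 0.23, adjusted p = 0.0537, edgeR).

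Of 6 other ligands of the B7 family, 4 had enough counts to be tested. All 4 were higher in EKO-labelled cells with OVA and 3 of 4 without, with median log2 fold changes of 1.36 and 1.11. Over all tested genes, 25.1% were higher with OVA and 24.5% without. Cd274, the ligand of the inhibitory receptor PD-1, was at 51.5 ± 4.53 and 53.2 ± 19.2 CPM in unpulsed and OVA-pulsed CtrV cells and at 160 ± 41.2 and 187 ± 59 CPM in EKO-labelled cells. Its log2 fold changes were 1.84 with OVA and 1.58 without, and its product can also bind CD80 on the same cell. Vsir, another inhibitory ligand, was higher by 0.76 and 0.65 on the log2 scale. Cd276 was near the detection limit in CtrV cells (0.14 and 0.20 CPM) and at 1.77 and 1.43 CPM in EKO-labelled cells, and Pdcd1lg2 was called only with OVA (adjusted p = 0.0427 with OVA and 0.258 without, edgeR), a difference between the states that was not itself called. Vtcn1 had 0 counts in every library, and Btnl2 at most 18.

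Cd40 (ENSMUSG00000017652, chromosome 2, 165055627 to 165072948, plus strand) rose more than any of the B7 ligands among the 7 genes. CtrV replicates 1, 2 and 3 were at 31.9, 37 and 42.2 CPM when unpulsed and at 50.06, 34.7 and 31.1 CPM after OVA. EKO-labelled replicates were at 173, 172 and 141 CPM when unpulsed and at 213, 132 and 180 CPM after OVA. The lowest EKO-labelled library, OVA-pulsed replicate 2, lay well above the highest CtrV library, OVA-pulsed replicate 1. The log2 fold change was 2.18 (SE 0.186), or 4.53-fold, with OVA (adjusted p = 5.54e-06, edgeR) and 2.12 (SE 0.187), or 4.34-fold, without (adjusted p = 7.77e-06). Larger rises were seen in 1.63% and 1.61% of all tested genes.

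The 20 listed transducers and regulators of CD40 signalling were all tested. In OVA-pulsed EKO-labelled cells 14 were higher and 0 lower, against 11 higher and 0 lower in unpulsed cells. The shares over all tested genes were 25.1% higher and 21.9% lower with OVA, and 24.5% and 21.9% without. The median log2 fold changes of the 20 genes were 0.48 and 0.28. Most of these genes also serve other receptors, including the LPS receptor. The adaptor genes of the TRAF family differed among themselves: Traf1 was higher by 0.95 with OVA and 0.92 without, whereas Traf3 and Traf5 were not called in either state, at 0.08 and 0.05 with OVA. The ubiquitin ligase genes Birc2 and Birc3, whose products sit in the receptor complex, were higher by 0.80 and 0.90 with OVA and by 0.79 and 0.94 without. Among the NF-kB subunits, Rel was higher by 1.09 and Nfkb1 by 0.83 with OVA, Relb by 0.63, Nfkb2 by 0.46 and Rela by 0.16. Of these 5, Nfkb2 (adjusted p = 0.0511) and Rela (adjusted p = 0.195) were not called without OVA by edgeR. Tnfaip3, which encodes the NF-kB inhibitor A20, was higher by 1.21 with OVA and 1.17 without. It is counted among the 14 and 11 higher genes, so these counts do not measure signalling strength. The kinase subunit genes Chuk, Ikbkb and Ikbkg were not called in either state. Cd40lg, the ligand of CD40, had 0 counts in every library.

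CD40 belongs to the TNF receptor superfamily, and 5 of 7 listed co-stimulatory ligands of the matching TNF superfamily could be tested. All 5 were higher in EKO-labelled cells in both states, with median log2 fold changes of 1.71 with OVA and 1.49 without. Higher genes made up 25.1% of all tested genes with OVA and 24.5% without. Tnfsf9, the ligand gene for the T cell receptor 4-1BB, rose from 13.7 ± 2.61 to 44.4 ± 6.92 CPM in OVA-pulsed cells, and Cd70, whose product binds CD27, from 2.11 ± 0.837 to 9.36 ± 3.39 CPM. Tnfsf15 had the largest rise of the list, from 32.2 ± 18.6 to 261 ± 85.1 CPM, or 3.10 on the log2 scale. Tnfsf8 rose by 0.55 and Tnfsf14, near 1 CPM or below, by 1.61. Tnfsf4 and Tnfsf18 had at most 17 and 1 counts and were not tested.

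**Figure D3:**
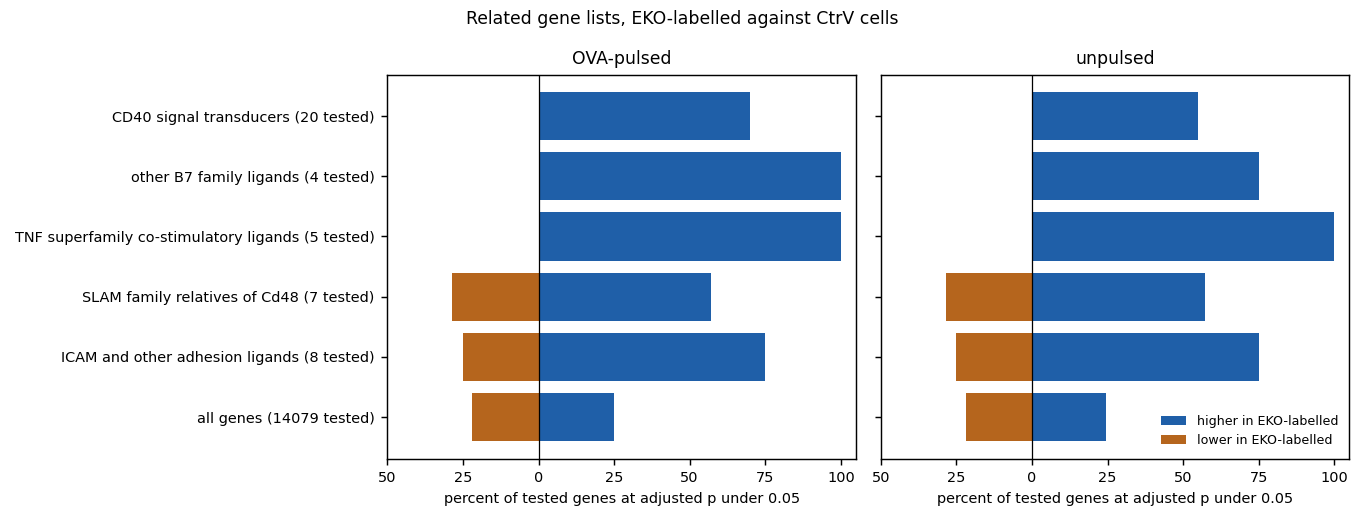
Percent of the tested genes of each related list that were higher (right of 0) or lower (left of 0) in EKO-labelled than in CtrV cells at an adjusted p under 0.05, for OVA-pulsed and unpulsed cells, with all 14079 tested genes as the bottom bar. The CD40 transducers and both lists of ligands had no lower gene, whereas the SLAM and adhesion lists had genes in both directions.

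Cd83 (ENSMUSG00000015396, chromosome 13, 43784775 to 43803132, plus strand) had the largest change and the largest spread. CtrV replicates 1, 2 and 3 were at 4.05, 6.08 and 8.82 CPM when unpulsed and at 8.12, 3.74 and 4.70 CPM after OVA, from 115 to 301 counts a library. EKO-labelled replicates were at 89.2, 43.5 and 35.9 CPM when unpulsed and at 106, 37.8 and 62.5 CPM after OVA. Replicate 1 was the highest EKO-labelled library in both states, and the CV lay between 37.9% and 51.2% in the 4 groups. The lowest EKO-labelled library, at 35.9 CPM, still lay far above the highest CtrV library, at 8.82 CPM. The log2 fold change was 3.60 (SE 0.35), or 12.1-fold with a 95% confidence interval of 7.06 to 20.7, in OVA-pulsed cells (adjusted p = 1.43e-05, edgeR). In unpulsed cells it was 3.03 (SE 0.352), or 8.18-fold with an interval of 4.77 to 14 (adjusted p = 5.4e-05, edgeR). Larger rises were seen in 0.206% and 0.462% of all tested genes. Without replicate 1 of every group, an alternative chosen after the data had been seen, the log2 fold changes of Cd83 were 3.55 and 2.44.

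Icam1 (ENSMUSG00000037405, chromosome 9, 21015985 to 21028817, plus strand) rose by about as much as Cd86. CtrV replicates 1, 2 and 3 were at 239.8, 227 and 233 CPM when unpulsed and at 291, 220 and 209 CPM after OVA. EKO-labelled replicates were at 424, 421 and 378 CPM when unpulsed and at 505, 376 and 432 CPM after OVA. Replicate 1 was the highest library of both OVA-pulsed groups, and the lines did not overlap. The log2 fold change was 0.87 (SE 0.0914), or 1.83-fold, with OVA (adjusted p = 2.5e-05, edgeR) and 0.81 (SE 0.0914), or 1.75-fold, without (adjusted p = 4.61e-05). Exons of the antisense gene Gm47079 cover 11.7% of the exon bases of Icam1, and use of the strand in counting is not given in the sources used here. Gm47079 itself had between 0 and 7 counts a library.

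LFA-1, the receptor of ICAM-1, is made of the chains encoded by Itgal and Itgb2, which moved in opposite directions in these cells. Itgal was at 60.2 ± 7.32 and 66.3 ± 13.3 CPM in unpulsed and OVA-pulsed CtrV cells and at 382 ± 17.3 and 393 ± 54.2 CPM in EKO-labelled cells, with log2 fold changes of 2.59 with OVA and 2.68 without (adjusted p = 4.1e-09 and 3.66e-09, edgeR). Itgb2, the chain that several integrins share, fell by 0.27 and 0.26 on the log2 scale, from 560 ± 10 to 460 ± 15.4 CPM with OVA. Of 12 listed ICAM and other adhesion genes, these included, 8 were tested. In both states 6 were higher and 2 lower, with median log2 fold changes of 0.90 and 0.77. All tested genes together had 25.1% higher and 21.9% lower with OVA, and 24.5% and 21.9% without. The other lower gene was Cd44, the hyaluronan receptor, at -0.19 and -0.24. F11r, a junctional adhesion molecule that also binds LFA-1, was higher by 1.55 and 1.48, and Cd47, which signals to phagocytes through SIRP alpha, by 0.88 and 0.92. Alcam was higher by 0.31 and 0.24. Icam2, Icam4 and Vcam1 had at most 31, 10 and 2 counts in any library and were not tested.

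Cd48 (ENSMUSG00000015355, chromosome 1, 171682009 to 171705258, plus strand) was the single member that was lower in EKO-labelled cells. CtrV replicates 1, 2 and 3 were at 60.6, 62.6 and 66.5 CPM when unpulsed and at 57.6, 60.4 and 65.1 CPM after OVA. EKO-labelled replicates were at 55.6, 48.5 and 49.2 CPM when unpulsed and at 53.5, 46.4 and 49.5 CPM after OVA. The lines did not overlap, but replicate 1, the highest EKO-labelled and the lowest CtrV library in both states, came close. Within replicate number 1 the difference was -0.11 with OVA and -0.13 without on the log2 scale, against -0.37 to -0.43 for replicates 2 and 3. The fitted log2 fold change was -0.29 (SE 0.0707), or 0.816-fold, with OVA (adjusted p = 0.00602, edgeR) and -0.31 (SE 0.0711), or 0.808-fold, without (adjusted p = 0.00484).

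The SLAM family relatives of Cd48 were mixed. Of 8 listed genes 7 were tested, and 4 were higher and 2 lower in both states. For comparison, 25.1% of all tested genes were higher and 21.9% lower with OVA, and 24.5% and 21.9% without. Slamf9 rose from 127 ± 7.66 to 203 ± 24.9 CPM and Slamf1 from 54.1 ± 4.79 to 88.3 ± 13.4 CPM in OVA-pulsed cells, and Slamf6 and Ly9, both near 3 CPM or below, were higher as well. Slamf7 fell by 0.66 with OVA and by 0.44 without, and Cd84 fell by 0.54 and 0.45, so Cd48 was not alone in its family. Cd244a, which encodes a receptor of CD48 and was present at 103 to 115 CPM as group means, was not called (adjusted p = 0.098 and 0.122, edgeR). Of 8 listed receptors that the 7 molecules meet on T cells, Itgal, Itgb2 and Cd244a were the 3 tested, while Cd28, Ctla4 and Icos had at most 7, 5 and 18 counts in any library and Cd2 and Cd40lg had 0.

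**Figure D4:**
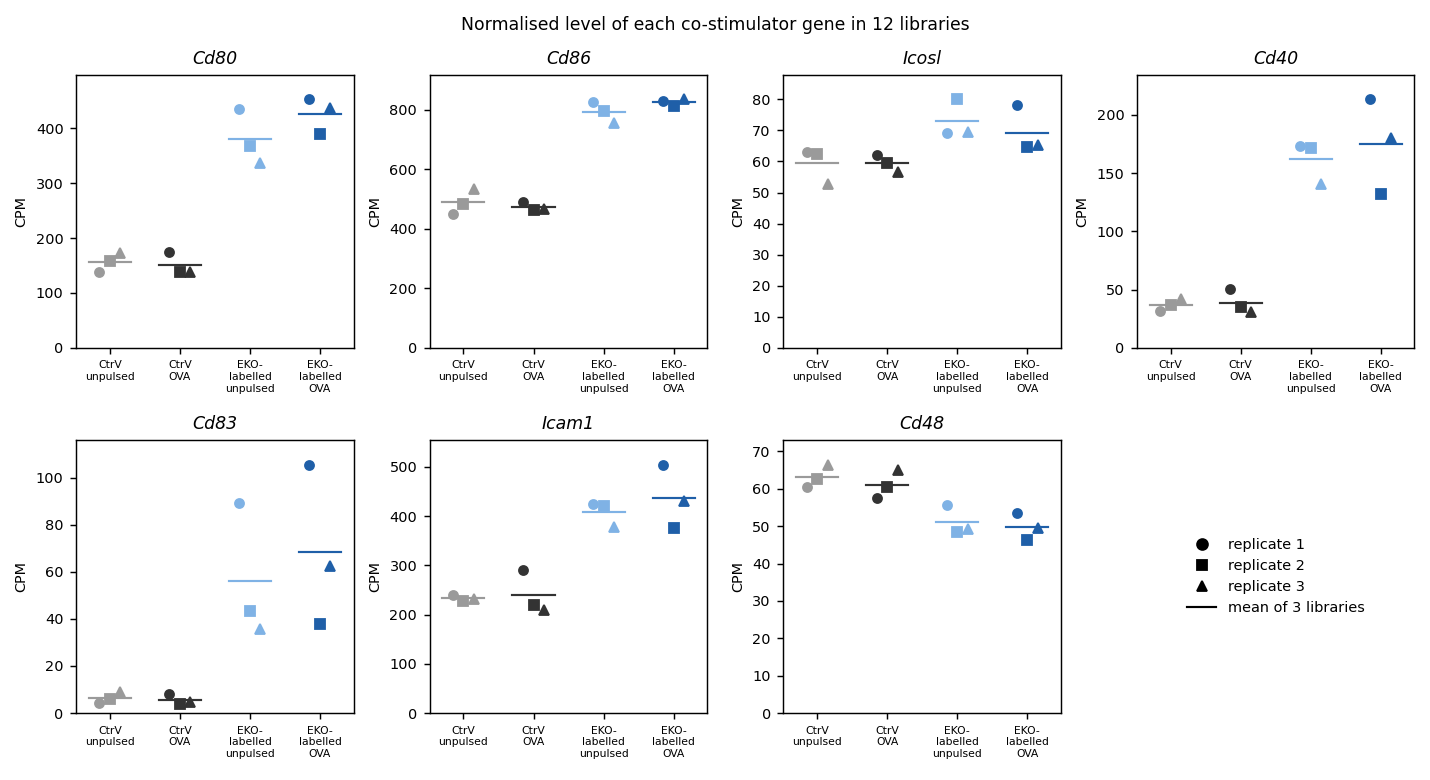
Level of each of the 7 genes in all 12 libraries, in CPM on a linear axis that starts at 0; symbols give the replicate number and lines the mean of 3 libraries. The EKO-labelled libraries lie above the CtrV libraries for 6 genes and below them for Cd48, and replicate 1 is the highest EKO-labelled library for Cd83 in both states, at 89.2 and 106 CPM.

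With libraries paired by replicate number, the line difference of Cd83, Cd80 and Cd86 ranged more widely in unpulsed than in OVA-pulsed cells. Icam1 went the other way, at 0.70 to 0.89 unpulsed and 0.77 to 1.04 with OVA. Same-numbered unpulsed libraries of the lines shared little, with correlations across genes of 0.0602, -0.0118 and 0.263. The ranges thus depend on which libraries happen to share a number. For Cd83 the CV was similar unpulsed (37.9% in CtrV, 51.2% in EKO-labelled) and with OVA (41.7% and 50%). Within replicate numbers 1, 2 and 3, the log2 difference between the lines in unpulsed cells was 4.44, 2.83 and 2.02 for Cd83, 1.65, 1.22 and 0.96 for Cd80, and 0.88, 0.72 and 0.50 for Cd86. In OVA-pulsed cells it was 3.69, 3.31 and 3.71 for Cd83, 1.38, 1.5 and 1.66 for Cd80, and 0.75, 0.81 and 0.84 for Cd86. Within the unpulsed cells, the difference of these genes was largest in replicate 1, where the CtrV library was the lowest of its group and the EKO-labelled library the highest. Replicate 3 was the highest unpulsed CtrV library for the 3 genes, and without it 7 members were called in unpulsed cells, with log2 fold changes of 3.48 for Cd83, 1.38 for Cd80 and 0.78 for Cd86. Without replicate 1 of every group, 6 members were called with OVA, all but Icosl, and 7 without, and Cd48 was lower by more, at -0.39 with OVA and -0.40 without (adjusted p = 0.000537 and 0.000461, edgeR). The log2 fold changes with and without OVA were then 1.58 and 1.09 for Cd80, 0.82 and 0.61 for Cd86, 2.24 and 1.98 for Cd40, 0.91 and 0.80 for Icam1, and 0.16 and 0.38 for Icosl. In that fit, 4 of all tested genes were called for pulsing in EKO-labelled cells and 5 for the interaction, and 0 of these were members.

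To compare levels between the genes, CPM was divided by the exon length of each gene in kb. In CtrV cells without OVA, Cd86 led at 134 ± 11.9 CPM per kb, followed by Icam1 at 53.5 ± 1.47, Cd48 at 53.2 ± 2.51 and Cd80 at 42.3 ± 4.65. Icosl at 12.9 ± 1.24, Cd40 at 10.9 ± 1.51 and Cd83 at 2.46 ± 0.93 CPM per kb were lowest. Icam1 and Cd48 overlapped in their libraries, as did Icosl and Cd40, and the order was the same with OVA. In unpulsed EKO-labelled cells Cd86 still led, at 216 ± 9.90 CPM per kb, but Cd80 came next at 103 ± 13.6 and overlapped with Icam1 at 93.5 ± 5.86. Cd40 followed at 47.5 ± 5.41 and overlapped with Cd48 at 43 ± 3.25. Cd83, at 21.9 ± 11.2, was level with Icosl at 15.8 ± 1.33 CPM per kb, and the libraries of these 2 genes overlapped. With OVA the order in EKO-labelled cells was the same, and from Cd40 downwards each gene overlapped with the next.

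For OVA pulsing, 0 of the 7 genes passed edgeR's quasi-likelihood test, in CtrV as in EKO-labelled cells. In all 14079 tested genes, 0 were called in either line (0% and 0%), and DESeq2 and limma voom also called 0. At an unadjusted p under 0.05, 231 genes passed in CtrV and 394 in EKO-labelled cells, of which 0 were among the 7. The log2 difference between OVA-pulsed and unpulsed cells lay between -0.29 (Cd83) and 0.03 (Cd40 and Icam1) in CtrV and between -0.08 (Icosl) and 0.27 (Cd83) in EKO-labelled cells. How large a change could have been missed differed between the genes. For Cd86 the 95% confidence interval ran from -0.19 to 0.11 in CtrV and from -0.09 to 0.21 in EKO-labelled cells, and for Cd83 from -1.18 to 0.60 and from -0.37 to 0.92.

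**Figure D5:**
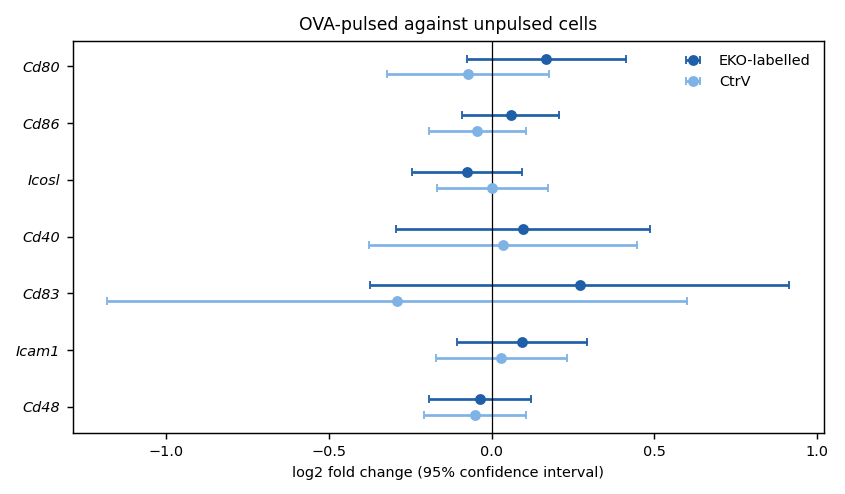
Log2 fold change (horizontal axis) of the 7 genes between OVA-pulsed and unpulsed cells, for EKO-labelled (dark) and CtrV (light) cells, with 95% confidence intervals over 3 libraries a group. All 14 intervals include 0, and those of Cd83 are the widest.

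Whether the difference between the lines depended on pulsing was asked with the interaction term of the same model, which called 0 of the 7 genes and 0% of all tested genes, by edgeR as by DESeq2 and limma voom. At an unadjusted p under 0.05, 269 of all tested genes and 0 of the 7 passed. The largest interaction estimate was that of Cd83, at 0.56 on the log2 scale (95% confidence interval -0.54 to 1.66), followed by Cd80 at 0.24 (-0.11 to 0.59). Both moved with single unpulsed CtrV libraries: without replicate 3 the estimates were 0.13 for Cd83 and 0.13 for Cd80, and without replicate 1 they were 1.15 and 0.41. For Cd48 it was 0.02 (-0.21 to 0.24). A p above the threshold in this test does not show that the line differences were equal in both states, and the 3 libraries of a group limit what could be seen.

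The genes with the profile most like each of the 7 across the 12 libraries were sought among 11343 genes with a mean log2 CPM of at least 2, by the root mean square (RMS) difference of log2 CPM after each gene had been centred on its own mean. The nearest profiles lay outside the group for each of the 7 genes. With 11343 genes searched this was likely for any gene, so it says little about the group. The measure also grows when 2 genes change in the same direction by different amounts. The closest pair among the 7 was Cd86 and Icam1, with an RMS difference of 0.145, and the most distant was Cd83 and Cd48, with 1.88. Cd86 was matched more closely by Gm20441 (0.0438), Ttc39c (0.0537) and Gpr171 (0.0546), and Icam1 by Ncf1 (0.065), Birc2 (0.081) and Mllt6 (0.0815). Nearest to Cd80 were Rnf180 (0.1), P2rx4 (0.107) and Rftn1 (0.111), and nearest to Cd40 were Sh3bp4 (0.127), Cx3cl1 (0.143) and Gm5424 (0.149). Cd83 was followed most closely by Ccl5 (0.211), Sh3bp5 (0.324) and Mylk (0.333). Small values for Icosl (Abhd6, 0.0545, Rbm4, 0.0601 and Ankrd50, 0.0643) and for Cd48 (Gpx1, 0.0361, Commd3, 0.0489 and Mtch1, 0.0491) go with the small range of these 2 genes over the libraries, 0.60 and 0.52 on the log2 scale. All 12 libraries entered these measures, so they mainly describe the difference between the lines.

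Cd80 and Cd86 lie 1.79 Mb apart on chromosome 16, and the tested genes within 1 Mb of each member were counted after the members' values had been seen. Near Cd86, 20 of 37 neighbours were higher and 2 lower in OVA-pulsed EKO-labelled cells, and 22 were higher and 0 lower in unpulsed cells. Near Cd80, 9 of 18 neighbours were higher and 0 lower in both states. The 2 windows overlap in part. Over the whole of chromosome 16, 29.2% of 455 tested genes were higher and 20.9% lower with OVA, and the median log2 fold change was 0.00. Without OVA, 28.1% of them were higher and 19.3% lower, and the median was 0.01. Around Cd48, 16 of 44 neighbours were higher and 6 lower with OVA, against 30.7% and 18.9% of all tested genes on chromosome 1. Around Icosl (3 higher and 5 lower of 22), Cd40 (6 and 9 of 26), Cd83 (1 and 2 of 7) and Icam1 (9 and 8 of 48) the directions were divided. On the chromosomes of these genes, 22.5% to 26.8% of tested genes were higher and 19.9% to 24.3% lower with OVA. No test was made of these counts.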

How the data were processed

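The authors deposited 1 table of unnormalized read counts for each gene, made by alignment to mm10 with STAR, SAMtools and featureCounts on an Ensembl annotation. Groups and replicate numbers were taken from the labels, and no sample was left out. The labels do not say that replicates were separate cultures, so p-values measure only the spread between these samples, which may be technical. Gene names and positions are those of GENCODE for GRCm38, which may differ from the annotation that was counted on.

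Here genes were kept when at least 2 libraries exceeded a log2 CPM of 0 (14079 of 55401), and TMM factors and a quasi-likelihood fit over all 12 libraries were computed with edgeR 4.0.16 in R 4.3.3, with group and replicate number as covariates as in the study's methods, and p-values adjusted by Benjamini-Hochberg across every gene kept. An adjusted p under 0.05 was called. The library totals were 27116201 to 39698572 counts. Confidence intervals are at 95% and come from the fit. Replicate pairing was checked by correlating the deviations from the group means across genes. Between the lines, same-numbered libraries had correlations of 0.448, 0.292 and 0.289 with OVA and 0.0602, -0.0118 and 0.263 without. Between the pulsing states of a line they ranged from 0.0775 to 0.706.

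The 7 genes are always named, related genes come from lists written by hand, and the 3 most similar genes of each member are named. The value of 1 listed marker gene is not reported here. The members, lists and tests were chosen with earlier results of these data known. Alternatives were DESeq2 1.42.0, limma voom (limma 3.58.1), other normalizations and filters, no replicate covariate, an adjusted p under 0.01, the compared libraries only, and leaving out each library. The bias-adjusted deviances of newer edgeR and leaving out replicate 1 of every group were added after the data had been seen.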

Additional observations from a re-analysis of the deposited data

How the results depend on the processing

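The counts of members that differed between the lines were 7 in both states and stayed at 6 or 7 under all 17 alternatives of each, and the member lost was Icosl. With OVA the call of Icosl was lost in 9 of 17 alternatives, with log2 fold changes from 0.14 to 0.29 over all of them. These were upper-quartile normalization, no replicate block, an adjusted p under 0.01, leaving out any 1 library of the 2 groups other than EKO_OVA replicate 2, and leaving out replicate 1 of every group. Without OVA it was lost only without EKO_unpulsed replicate 2 (log2 fold change 0.23, adjusted p = 0.0537 in edgeR). The other 6 members kept direction and call in every alternative. Without the replicate block, 6 members were called with OVA and 7 without, and 0 for pulsing or the interaction. The difference between the lines (EKO-labelled minus CtrV) in the log2 ratio of Cd80 to Cd86 stayed between 0.61 and 0.69, with an exact two-sided p of 0.0312 when differences were taken within replicate number (replicate block). Pulsing and interaction counts stayed at 0 in every alternative.

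Signs of uncalled values turned in some alternatives. For pulsing in CtrV cells, upper-quartile normalization gave -0.02 for Icosl, and without replicate 1 of every group the values were -0.26 for Cd40 and -0.10 for Icam1. In EKO-labelled cells the latter gave -0.009 for Cd40.
When single libraries were left out, the ranges for pulsing in CtrV cells were -0.234 to 0.043 (Cd80), -0.123 to 0.036 (Cd86), -0.041 to 0.031 (Icosl), -0.19 to 0.20 (Cd40), -0.88 to 0.16 (Cd83), -0.066 to 0.10 (Icam1) and -0.104 to 0.016 (Cd48). In EKO-labelled cells they were -0.164 to 0.004 (Icosl), -0.004 to 0.269 (Cd40), -0.007 to 0.476 (Cd83) and -0.094 to 0.034 (Cd48), and for the interaction 0.129 to 0.406 (Cd80), 0.024 to 0.182 (Cd86), 0.133 to 1.15 (Cd83), -0.167 to 0.001 (Icosl), -0.097 to 0.281 (Cd40), -0.008 to 0.162 (Icam1) and -0.052 to 0.086 (Cd48). Counts of single members were lowest for Cd83 in CtrV cells, at 115, and the spread between 3 libraries a group limits all tests.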
